A study of Mus musculus with 42 samples.

Results

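Cells take up fatty acids from the blood and carry them inside with the products of a group of genes. In liver, 9 of these genes were followed here: Cd36, Lpl, Fabp1, Fabp2, Fabp4, Slc27a1, Slc27a2, Slc27a4 and Slc27a5. They were named as a set, with earlier results of these data known. Each was read from the brightest probe set of the array that carries its symbol alone. Of the 9, 8 had such a probe set, 1 each, among 17989 genes measured in this way. Slc27a2 was not analysed here. Livers came from wild-type male C3HeB/FeJ mice, an inbred strain, housed singly and random-fed. The high-fat diet (HFD) was given for 7 days (8 arrays, mice aged 15 weeks), 14 days (8 arrays, 16 weeks) or 21 days (8 arrays, 17 weeks). The 18 control arrays came from mice of 15 to 17 weeks kept on a low-fat diet for up to 21 days. The labels of the 21-day and control arrays add the word reanalysis and those of the 7-day and 14-day arrays do not, so this difference and the diet cannot be told apart when 7 or 14 days is set against controls, nor this difference and the time when 21 days is set against 7 or 14 days. The labels do not say which animal each array came from, so the p-values cover only the spread among these arrays, which may be technical. In bulk tissue, fewer cells of a type and less RNA per cell cannot be told apart.

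Long-chain fatty acids reach the liver bound to albumin or inside lipoprotein particles. Lipoprotein lipase, the product of Lpl, releases them from triglyceride at the vessel wall, and CD36, a scavenger receptor also called fatty acid translocase, helps them cross the plasma membrane. The fatty acid transport proteins of the Slc27 family join fatty acids to coenzyme A, and fatty acid binding proteins (FABPs) hold them in the cytosol. Adult hepatocytes make much Fabp1 and Slc27a5, the second of which also activates bile acids. Fabp2 is best known from the intestine, Fabp4 from adipocytes and macrophages, and Cd36, Fabp1 and Lpl are known targets of the nuclear receptors PPAR-alpha or PPAR-gamma.

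Values are log2 intensities, so a difference of 1 is a doubling of signal, and levels of different genes are not set against each other because probes differ in brightness. The 95th percentile of 929 olfactory receptor genes, which liver is not known to use, was 2.86, and the mean of each of the 8 genes lay above it. Hepatocyte markers were bright on every array, with the mean of 6 of the 8 listed markers between 11.5 and 12.2, and 0 of them differed from controls at any time. Acinar markers of the pancreas varied widely between arrays: the mean of 11 measured markers spanned 3.58 to 9.44, 3.52 to 9.32 and 3.42 to 6.45 after 7, 14 and 21 days of HFD and 3.46 to 8.54 in controls. The mean of 5 adipocyte markers was near background, at 2.72 to 2.90, 2.69 to 3.09 and 2.58 to 3.12 after 7, 14 and 21 days and at 2.80 to 3.20 in controls. Of the 5, Adipoq and Lep lay below background. Plin1, Retn and Nnat lay above it, with means of 3.39, 2.93 and 2.93 over all arrays. The mean of 6 enterocyte markers lay between 2.59 and 2.91 over all groups, and 3 of the 6, among them Sis, lay below background.

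Of the 8 genes, 3 differed from controls after 7 days of HFD, 2 after 14 days and 3 after 21 days, at a Benjamini-Hochberg adjusted p under 0.05 over all genes in limma. Over all 17989 genes the share was 1.4% at 7 days, 0.667% at 14 days and 0.7% at 21 days. The 8 genes were chosen with earlier results of these data known, so these counts are a description and no test of the set. Cd36 and Fabp2 rose at all 3 times, Fabp1 rose at 7 days, and Lpl fell at 21 days. The median difference of the 8 genes was 0.05, 0.10 and 0.04 on the log2 scale at 7, 14 and 21 days, against -0.01, -0.00 and 0.01 over all genes. The 3 comparisons share the 18 control arrays.

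**Figure D1:**
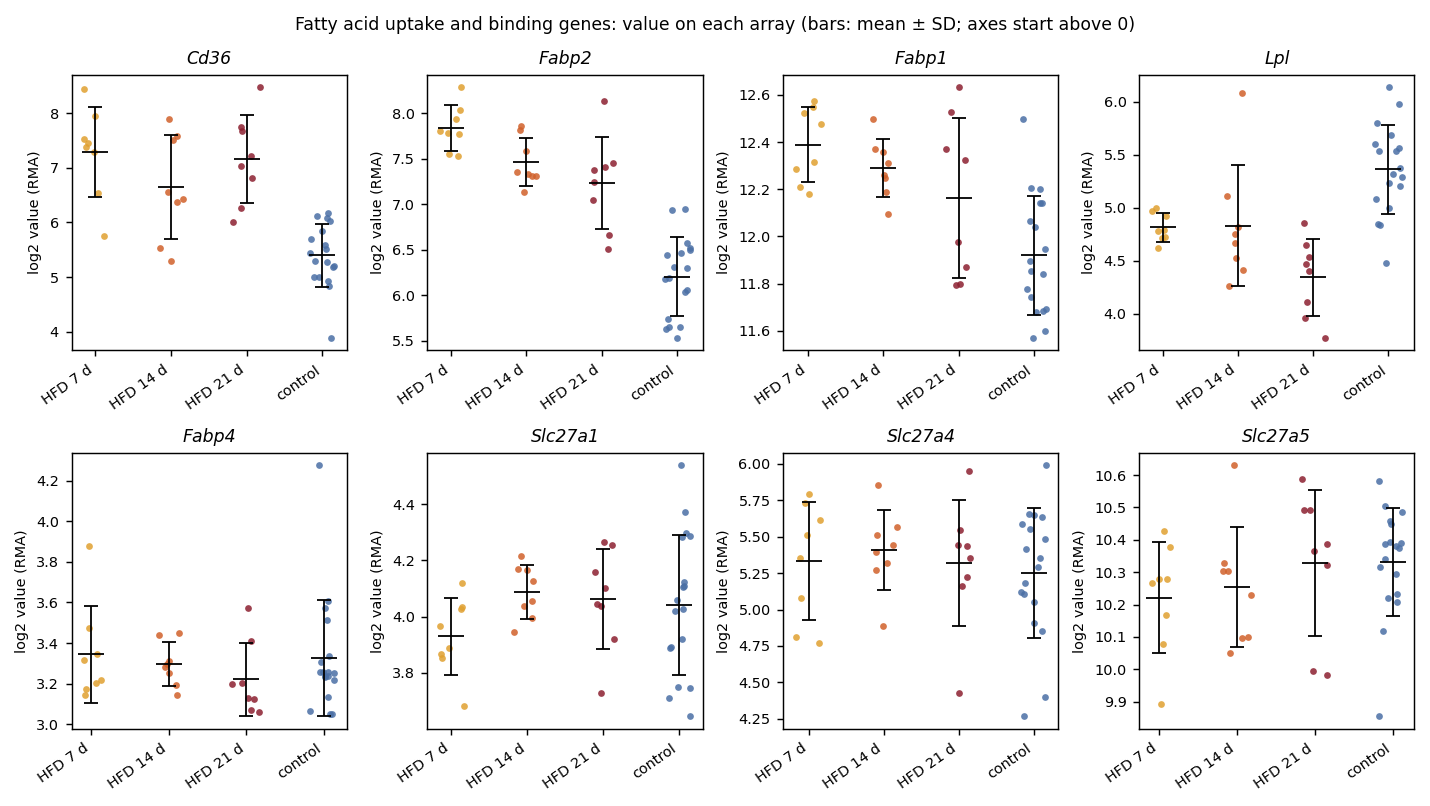
Log2 intensity of each of the 8 measured genes on every array (points), with the mean and SD (bars), for 7, 14 and 21 days of HFD and for controls. All 8 arrays at 7 days and all 8 at 14 days lay above every control for Fabp2, and most HFD arrays did for Cd36.

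Cd36 rose in livers on the HFD. After 7 days its values ran from 5.75 to 8.44 with a median of 7.41, after 14 days from 5.30 to 7.88 with a median of 6.49, and after 21 days from 6.01 to 8.47 with a median of 7.13. Controls ran from 3.89 to 6.18 with a median of 5.37. The groups overlapped, although 7, 6 and 7 of 8 HFD arrays lay above the highest control at 7, 14 and 21 days. The difference from controls was 1.89 ± 0.30 (SE, limma) at 7 days, a 3.72-fold higher signal, with an adjusted p of 3.41e-05. It was 1.25 at 14 days (95% limits 0.65 to 1.85, 2.38-fold, limma adjusted p = 0.0265) and 1.76 at 21 days (1.16 to 2.36, 3.39-fold, limma adjusted p = 2.60e-04). The call at 14 days was lost without HFD replicate 3, 5, 6 or 7 of that time, with limma adjusted p-values of 0.0502, 0.145, 0.0942 and 0.117, and without the arrays high in acinar markers, with a difference of 1.08 and an adjusted p of 0.334. The last setting left out 2 of the 8 arrays at 14 days and 5 of the controls. The call was also lost with the replicate number as a block (1.02, limma adjusted p = 0.290). Controls numbered above 8 share their number with no HFD array, so they drop out of that difference. The difference was 1.95 with HFD replicates 5 to 8 alone and 0.55 with 1 to 4 alone (limma adjusted p = 0.606). Cd36 is also made by macrophages, and 3 of 11 Kupffer cell and macrophage markers were higher at 7 days, where their list mean ran from 5.51 to 5.90, against 5.0 to 5.66 in controls. With that mean as a covariate Cd36 differed by 1.82, 1.22 and 1.74 at 7, 14 and 21 days (limma adjusted p = 0.00441, 0.0563 and 5.67e-04). This covariate was chosen after seeing the data, as was leaving out the arrays high in acinar markers.

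The Slc27 transporters did not pass the test at any time. Slc27a5, which makes bile acid coenzyme A esters, ran from 9.89 to 10.43, from 10.05 to 10.63 and from 9.98 to 10.59 after 7, 14 and 21 days of HFD and from 9.86 to 10.58 in controls. Slc27a4, a transporter also known from the intestine and skin, averaged 5.33 ± 0.40, 5.41 ± 0.27 and 5.32 ± 0.43 (SD, n = 8 each) after 7, 14 and 21 days and 5.25 ± 0.44 (SD, n = 18) in controls. Slc27a1, known from muscle and fat, averaged 3.93 ± 0.14, 4.09 ± 0.10 and 4.06 ± 0.18 after 7, 14 and 21 days and 4.04 ± 0.25 in controls. The groups overlapped throughout for these 3 genes. The 95% limits of their differences from controls lay between -0.28 and 0.49 over the 3 times, which sets the size of change that could have been missed.

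Lpl fell in livers after 21 days of HFD. Its values then ran from 3.77 to 4.85 with a median of 4.43, against 4.48 to 6.14 with a median of 5.35 in controls. All 8 arrays at 21 days lay below the control mean and 5 lay below the lowest control. The difference was -1.02 ± 0.17 (SE, limma), a 2.03-fold lower signal with an adjusted p of 1.19e-04. Lpl lay between 4.62 and 5.0 at 7 days and between 4.26 and 6.08 at 14 days, with differences of -0.55 (limma adjusted p = 0.0964) and -0.53 (limma adjusted p = 0.219). At 7 days 8 of 8 arrays and at 14 days 7 of 8 lay below the control mean, but neither difference passed. Both calls depended on the setting. The difference was -0.71 at 14 days without HFD replicate 8 of that time (limma adjusted p = 0.00696). It was -0.60 at 7 days without control replicate 4 (limma adjusted p = 0.0354). With no array left out, Lpl also passed at 7 days in a fit of those groups alone (limma adjusted p = 0.0457) or with the acinar (0.0420) or Malat1 (0.0469) covariate, and at 14 days with array weights (0.0333).

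Lpl is also made by muscle, macrophages and adipocytes, so the markers of these cells were set beside it. The mean of 5 muscle markers had a median of 3.98, 4.32 and 4.05 at 7, 14 and 21 days and of 4.48 in controls, with 0 markers called. The mean of 11 Kupffer cell and macrophage markers had a median of 5.64, 5.45 and 5.47 and, in controls, of 5.33, with 3 markers higher at 7 days and 0 at the later times. With the muscle, macrophage or adipocyte marker mean as a covariate, a choice made after seeing the data, the difference of Lpl at 21 days was -1.03, -1.08 and -1.09, beside -1.02 without a covariate. The adipocyte marker mean lay near background, so it can hardly follow adipocytes. The part of these cells in the fall was not tested. With HFD replicates 5 to 8 alone the Lpl difference at 21 days was -0.82, with a limma adjusted p of 0.0517. With 1 to 4 alone it was -1.21 (limma adjusted p = 4.13e-04).

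A list of 12 genes held partners of Lpl, which help its folding, bind it to capillaries or change its activity, and related lipases. Of the 12, 8 were measured, and 1 of them passed at each time. Angptl4, an inhibitor of lipoprotein lipase and a known target of PPAR-alpha, rose at all 3 times. It averaged 5.89 ± 0.26, 5.77 ± 0.23 and 5.81 ± 0.23 (SD, n = 8 each) after 7, 14 and 21 days of HFD and 5.32 ± 0.30 (SD, n = 18) in controls. All 8 arrays lay above the control mean at each time, and 3 of 8 lay above every control. The differences were 0.57, 0.45 and 0.49, with limma adjusted p-values of 9.08e-04, 0.0313 and 0.0138. The call was lost in 2 of 18 alternative settings at 7 days, 10 of 18 at 14 days and 4 of 18 at 21 days, with differences of 0.36 to 0.73 over all of them.

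Among the binding proteins, Fabp2 rose at all 3 times. It ran from 7.54 to 8.29 (median 7.79) at 7 days, from 7.14 to 7.86 (median 7.35) at 14 days, and from 6.51 to 8.13 (median 7.31) at 21 days. Controls ran from 5.53 to 6.95 with a median of 6.25. All 8 arrays at 7 days, all 8 at 14 days and 6 of 8 at 21 days lay above every control. Every HFD array lay above every control for 0.228% of all genes at 7 days and for 0.0778% at 14 days. The difference was 1.63 ± 0.16 (SE, limma) at 7 days, 3.10-fold, with an adjusted p of 7.37e-10, the 9th smallest p of all genes. It was 1.26 at 14 days (95% limits 0.94 to 1.58, limma adjusted p = 9.55e-07) and 1.02 at 21 days (0.70 to 1.35, limma adjusted p = 6.71e-05). Of the 6 enterocyte markers, 0 passed at any time, and Sis, Cdh17 and Krt20 lay below background. The part of such cells in the rise was not tested.

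Fabp1, the main FABP of hepatocytes, ran from 12.18 to 12.58 (median 12.40) at 7 days, from 12.10 to 12.50 (median 12.29) at 14 days, and from 11.80 to 12.63 (median 12.15) at 21 days. Controls ran from 11.57 to 12.50 with a median of 11.88. The groups overlapped at each time, and 8, 8 and 5 of 8 HFD arrays lay above the control mean. The rise passed at 7 days, with a difference of 0.47 ± 0.10 (SE, limma) and an adjusted p of 0.00363. It was 0.37 at 14 days (limma adjusted p = 0.0784, or 0.0210 without control replicate 8) and 0.24 at 21 days (limma adjusted p = 0.572). At 7 days 3 of 11 macrophage markers were also higher, and with their mean as a covariate Fabp1 differed by 0.29 with an adjusted p of 0.360. The call was also lost without the arrays high in acinar markers, with a difference of 0.37 and an adjusted p of 0.348. That setting left out 4 of the 8 arrays at 7 days and 5 of the controls. It and the macrophage covariate were chosen after seeing the data.

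Fabp4 was dim and did not pass. It averaged 3.34 ± 0.24, 3.30 ± 0.11 and 3.22 ± 0.18 (SD, n = 8 each) after 7, 14 and 21 days of HFD and 3.33 ± 0.29 (SD, n = 18) in controls. The highest value of all, 4.28, was on control replicate 6, which also had the highest adipocyte marker mean, 3.20. Of the 6 other genes of the FABP and Slc27 families, all were measured and 3 lay above background. Fabp5, the epidermal FABP, fell at 21 days, with values of 4.22 to 5.38 against 4.73 to 6.66 in controls. All 8 arrays lay below the control mean, and the difference was -0.96 ± 0.19 (SE, limma) with an adjusted p of 0.00375. Its differences of -0.33 at 7 days and -0.51 at 14 days did not pass. At 21 days the call was lost in 4 of 18 alternative settings.

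**Figure D2:**
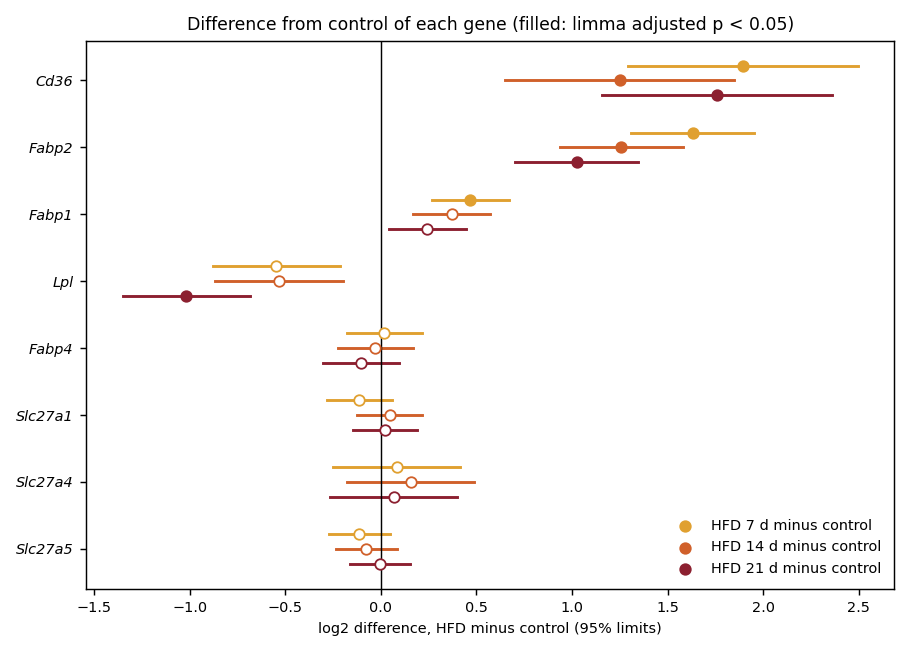
Difference in log2 intensity from controls of each of the 8 genes at 7, 14 and 21 days of HFD, with 95% limits from limma and filled points where the adjusted p was under 0.05. Cd36 and Fabp2 are filled at all 3 times, Fabp1 at 7 days and Lpl, to the left of 0, at 21 days.

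The promoters of the 3 genes that rose are shown because PPAR receptors bind a repeat of the letters AGGTCA with 1 base between the copies. The 250 bases before the start of each gene follow, from RefSeq on GRCm38.p6, in the gene's own direction. Capitals mark the closest match to AGGTCANAGGTCA, searched on both strands, which lies on the strand opposite to the gene in each. The windows are chr5:17835897-17836146 (minus strand) for Cd36, chr6:71199629-71199878 (plus strand) for Fabp1 and chr3:122894822-122895071 (plus strand) for Fabp2.
Cd36: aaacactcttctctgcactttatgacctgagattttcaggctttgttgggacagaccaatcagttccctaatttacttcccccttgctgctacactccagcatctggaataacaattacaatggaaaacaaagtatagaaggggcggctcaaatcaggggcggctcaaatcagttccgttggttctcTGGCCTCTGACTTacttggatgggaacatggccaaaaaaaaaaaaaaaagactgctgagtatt
Fabp1: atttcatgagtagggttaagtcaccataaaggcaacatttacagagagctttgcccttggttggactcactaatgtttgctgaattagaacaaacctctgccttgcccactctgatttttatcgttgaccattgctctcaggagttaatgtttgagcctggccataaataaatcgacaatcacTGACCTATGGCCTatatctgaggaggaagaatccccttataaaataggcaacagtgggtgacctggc
Fabp2: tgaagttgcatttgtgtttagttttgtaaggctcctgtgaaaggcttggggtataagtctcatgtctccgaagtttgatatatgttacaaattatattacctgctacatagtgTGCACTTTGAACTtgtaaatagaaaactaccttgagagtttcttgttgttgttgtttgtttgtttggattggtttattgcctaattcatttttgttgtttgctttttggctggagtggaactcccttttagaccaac

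In Fabp1 1 of the 12 fixed letters differed, from position -67 to -55 counted from the start of the gene. In Cd36 2 of 12 differed, from -63 to -51, and in Fabp2 3 of 12, from -137 to -125. Of 32851 promoter windows of the same length, 0.484% held a match with at most 1 differing letter, 3.24% with at most 2 and 0.0335% an exact match. The share with at most 3 was not counted, so the stretch marked in Fabp2 cannot be called unusual. Fabp1 also held TATAAA at -30, which 7.59% of windows held on the gene's strand. Windows were found for 6 of the 9 genes. Slc27a2 had 3 differing letters, and Slc27a1 and Slc27a4 had more than 3. A match is a description of the letters and not a site of binding.

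Between HFD times 0 of the 8 genes passed. The share of all genes was 0% for 14 against 7 days, 0.00556% for 21 against 7 days and 0% for 21 against 14 days. In limma 451, 1283 and 715 genes, or 2.51%, 7.13% and 3.97%, had an unadjusted p under 0.05 in these comparisons, among them 0, 2 and 1 of the 8. Fabp2 was lower at 21 than at 7 days by a difference of -0.61 (95% limits -0.99 to -0.23, limma p = 0.00229, adjusted p = 0.574). Lpl had a difference of -0.47 for 21 against 7 days (limma p = 0.0197, adjusted p = 0.658) and of -0.49 for 21 against 14 days (limma p = 0.0163, adjusted p = 0.999). The smaller Cd36 difference at 14 days was likewise not shown to differ from that at 7 days, with -0.64 for 14 against 7 days (95% limits -1.35 to 0.06). In the F test over the 3 times 0.00556% of genes passed, and Fabp2 and Lpl had unadjusted p-values of 0.00839 and 0.0246.

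Regulators and neighbouring steps of the pathway were described from 4 further lists, chosen with earlier results of these data known. Of 12 measured regulators, Ppara, the receptor that drives fatty acid oxidation genes, rose at 7 days (0.65, limma adjusted p = 0.00265) and 14 days (0.55, limma adjusted p = 0.0360), with 5 of 8 arrays above every control at both. At 21 days it differed by 0.34 with an adjusted p of 0.530. Its call was lost in 4 of 18 alternative settings at 7 days and 8 of 18 at 14 days. Pparg, the receptor that drives fat storage, stayed near background, at 2.79, 2.83 and 2.78 after 7, 14 and 21 days and 2.86 in controls. The list medians were 0.08, 0.11 and 0.10.

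Of 5 measured genes listed here as PPAR-gamma targets in fatty liver, 2 rose at 7 days, 1 at 14 days and 2 at 21 days. The list medians were 0.20, 0.08 and 0.06, and the part of PPAR-gamma in the rises was not tested. Plin2, which coats lipid droplets, lay between 10.2 and 10.8, 9.80 and 10.4, and 9.55 and 10.4 after 7, 14 and 21 days, against 8.86 to 9.68 in controls. Its groups did not overlap at 7 and 14 days, and its differences of 1.06, 0.72 and 0.67 passed at all 3 times and in all 18 alternative settings. Cidea, Cidec and Plin4 passed at no time. G0s2, an inhibitor of triglyceride lipase, differed by 0.74 (limma adjusted p = 0.0249), 0.55 (limma adjusted p = 0.341) and 0.94 (limma adjusted p = 0.00269) at 7, 14 and 21 days. Its calls were lost in 6 of 18 alternative settings at 7 days and 3 of 18 at 21 days.

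Of 13 measured acyl-CoA synthetases and acyl-CoA binding genes, 2 rose at 7 days and 0 at the later times, with list medians of 0.07, -0.00 and -0.07. Acsl5, a long-chain acyl-CoA synthetase, differed by 0.41 with a limma adjusted p of 0.0456, a call lost on leaving out 1 array for 17 of the 26 arrays. Dbi, which binds acyl-CoA esters, differed by 0.38 with a limma adjusted p of 0.00471, and its call was lost in 5 of 18 alternative settings. Of 7 measured lipoprotein receptor and caveola genes 0 passed, with differences between -0.13 and 0.32 over the 3 times.

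**Figure D3:**
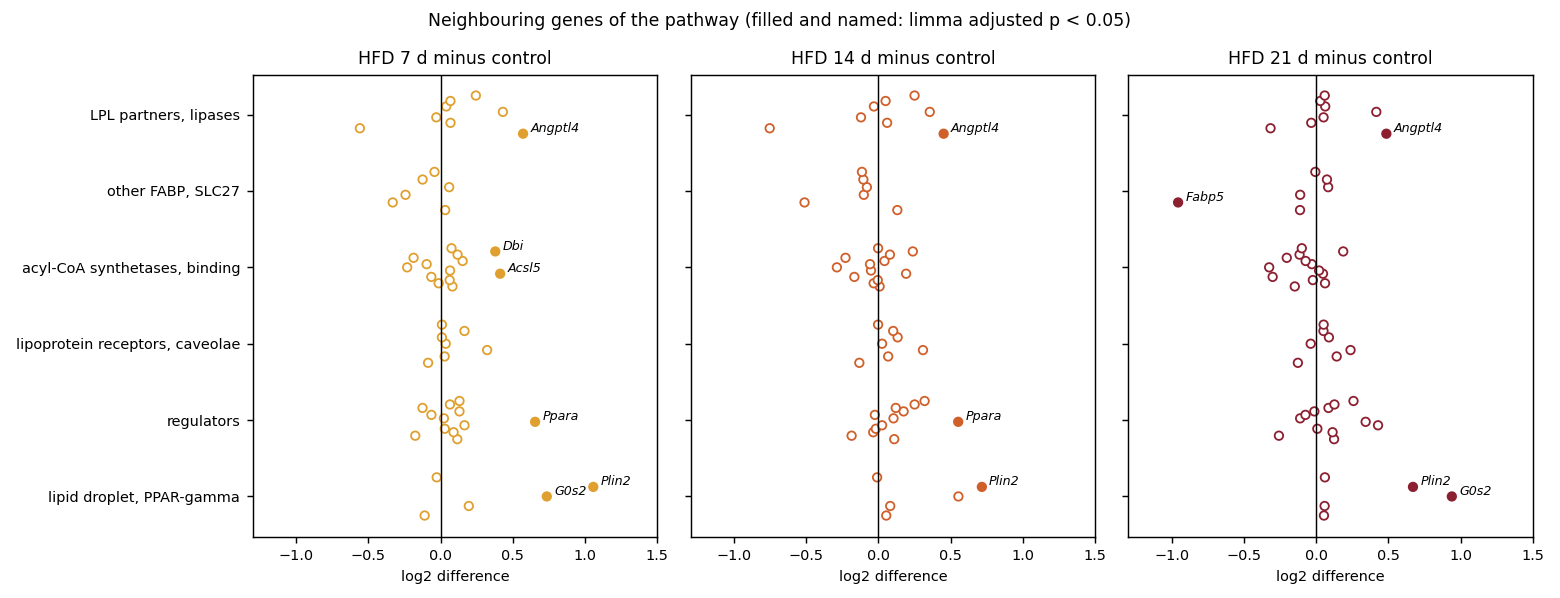
Difference in log2 intensity from controls of each measured gene of 6 neighbouring lists at 7, 14 and 21 days of HFD, with filled and named points where the limma adjusted p was under 0.05. Angptl4 and Plin2 are named at all 3 times, and Fabp5, below 0, at 21 days.

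Averaged over the 3 times, HFD arrays numbered 5 to 8 differed from those numbered 1 to 4 at an adjusted p under 0.05 in 21.1% of all genes, and 3 of the 8 genes were among them. Within a time the share was 0% at 7 days, 0.0278% at 14 days and 19.1% at 21 days, with 0, 0 and 1 of the 8 genes, and 2137, 1843 and 5697 genes had an unadjusted p under 0.05 in limma. The labels do not say what the numbers stand for. Cd36 averaged 7.76 on numbers 5 to 8 against 6.82 on 1 to 4 at 7 days, 7.35 against 5.94 at 14 days and 7.48 against 6.83 at 21 days, a mean difference of 1.0 (limma adjusted p = 0.00304). Fabp1 was higher by 0.31 (limma adjusted p = 0.00415) and Slc27a4 lower, with a difference of -0.47 (limma adjusted p = 0.0177). At 21 days Fabp1 ran from 12.32 to 12.63 on numbers 5 to 8 and from 11.80 to 11.98 on 1 to 4, with no overlap, a difference of 0.60 (limma adjusted p = 0.0022). At 7 days the numbers did not overlap for Slc27a4, at 4.77 to 5.35 on 5 to 8 and 5.51 to 5.79 on 1 to 4. Nor did they for Slc27a5, at 9.89 to 10.27 and 10.28 to 10.43. Neither difference passed at 7 days (limma adjusted p = 0.283 and 0.468). The share of all genes without overlap between the numbers was not counted. The split was not shown to change with time: that test passed for 0 genes, and Fabp1 had a limma p of 0.0470 and an adjusted p of 0.491. Set against controls, Fabp1 at 21 days differed by 0.54 with numbers 5 to 8 alone (limma adjusted p = 0.0122) and by -0.060 with 1 to 4 alone (limma adjusted p = 0.820).

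**Figure D4:**
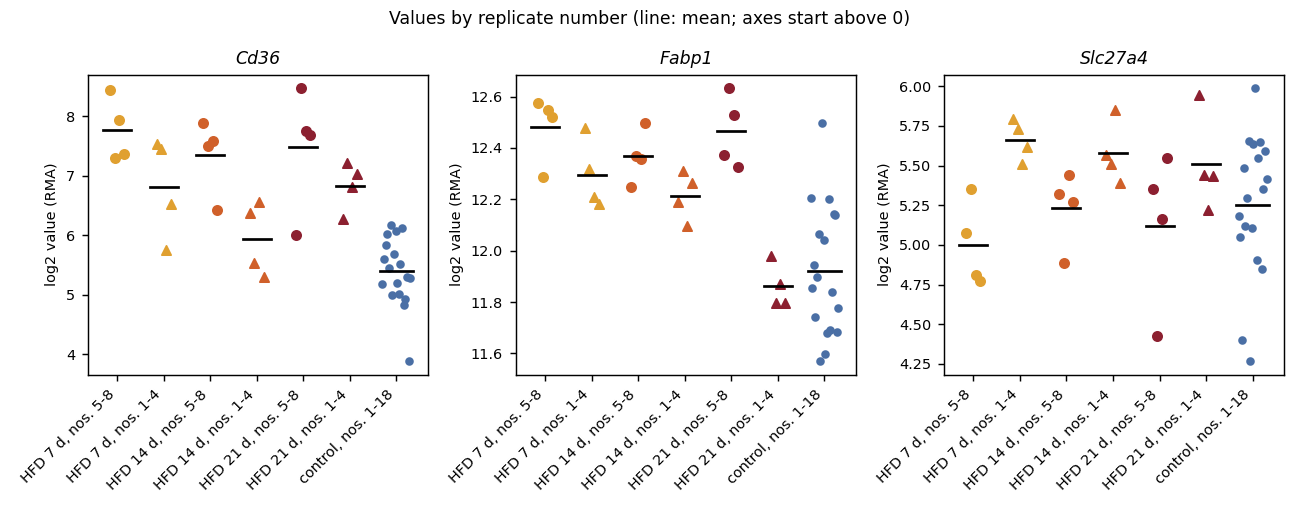
Log2 intensity of Cd36, Fabp1 and Slc27a4 on HFD arrays numbered 5 to 8 (circles) and 1 to 4 (triangles) at 7, 14 and 21 days, and on control arrays, with lines at the means. At 21 days Fabp1 does not overlap between the numbers, and Cd36 means are higher on numbers 5 to 8 at each time.

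The split was taken up because an earlier look at these data showed Malat1, a long noncoding RNA of the nucleus, higher on numbers 5 to 8. The separation of Malat1 by number is therefore no separate support for the split. Its lowest value on numbers 5 to 8 was 8.79, 8.61 and 9.15 at 7, 14 and 21 days, above its highest on 1 to 4, which was 7.01, 7.33 and 7.41. With Malat1 as a covariate 0 genes passed between the numbers in limma, but since its values separate the numbers completely, such a fit can hardly tell them apart. The difference of Cd36 was then 1.12 (limma adjusted p = 0.997), that of Fabp1 0.024 and that of Slc27a4 0.051. The 18 controls allowed its relation to the 8 genes to be read without diet, in 8 correlations with 100000 resamples each. Permutation p-values were adjusted over these 8 correlations only. The share of all genes related to Malat1 in controls was not counted. Slc27a4 had r = -0.70 (permutation p = 0.00108, adjusted 0.00864) and rho = -0.75 (permutation p = 5.60e-04, adjusted 0.00448). Fabp1 had r = 0.62 (permutation p = 0.00616, adjusted 0.0246) and rho = 0.65 (permutation p = 0.00379, adjusted 0.0152). Without the 2 controls farthest from the median of Malat1, r was -0.77 and 0.61, and within controls 1 to 9 and 10 to 18 it was -0.56 and -0.77 for Slc27a4 and 0.55 and 0.65 for Fabp1. Cd36 had r = 0.03 (permutation p = 0.892) and rho = 0.17 (permutation p = 0.496). Its r was 0.47 without the 2 farthest, but -0.07 within controls 1 to 9 and -0.27 within 10 to 18. Slc27a1 had r = -0.54 (permutation p = 0.0220, adjusted 0.0588) and did not pass, nor did Lpl, Fabp2, Fabp4 and Slc27a5. The part that what moves Malat1 has in the differences of Cd36, Fabp1 and Slc27a4 between the numbers was not tested.

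Within groups the genes varied together in part. Over 42 arrays, after each group's mean was taken away, Fabp1 and Slc27a4 had r = -0.68, Slc27a4 and Slc27a5 0.60, and Fabp1 and Fabp2 0.54. Cd36 and Fabp2, which both rose at all 3 times, had r = 0.37. These are descriptions over arrays that share a group mean, a replicate number and the spread of Malat1. The genes most like Cd36 in this measure were Acss3 (r = 0.74), Aldh1a7 (0.74), Cyp2c39 (0.71) and Aqp4 (0.67), and those most like Fabp2 were Tfpi2 (0.82), Hprt (0.78), Erh (0.78) and S100a10 (0.77). Those most like Fabp1 were Sucla2 (0.89), Micu2 (0.89), Scrn3 (0.88) and Kynu (0.88). Lpl had weaker matches, with P2rx4 (0.60), Wdr45 (0.58), Cdk4 (0.57) and Ces3b (0.57).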

How the data were processed

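Whole-transcript Affymetrix arrays, 42 in all, measured liver RNA. The deposited values are log2 intensities, made by the authors with RMA in Affymetrix Expression Console 1.1, per the submitters' processing notes. The genome build behind it was not given in the sources used here. Of 32624 probe sets, 1 was dropped because 33 arrays had no value for it, and 19558 carried 1 gene symbol, 1469 several. Of those with 1 symbol 19475 matched RefSeq by Entrez identifier. The brightest probe set stood for a gene, with no filter on dim genes. Array medians were 3.08 to 3.28 and no scaling was added. Arrays carry no depth, and their number limits the precision.

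All 42 arrays entered 1 limma 3.58.1 fit (R 4.3.3, lmFit and eBayes) with 4 groups. Calls had a Benjamini-Hochberg adjusted p under 0.05 over 17989 genes, 2-sided. The fit was tested on simulated data. Genes named are the 8 measured members, up to 6 called genes per neighbouring list, and the 4 genes most alike in deviations from the group means to each member called. Members and lists were chosen with earlier results of these data known. Same-numbered arrays at 14 and 21 days deviated together (r 0.12 to 0.55 in 8 of 8 pairs), so a fit with the number as a block was run. Controls numbered above 8 have no HFD array of their number, so they drop out of its differences from controls. Of the 8 arrays at 14 days, however, only 2 were most like the 21-day array of their own number. For HFD against controls 3, 2 and 1 of 8 pairs had r over 0.1. Alternatives covered scaling, weights, covariates, subsets of arrays and leaving out each array.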

Additional observations from a re-analysis of the deposited data

Results flagged for a closer look

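A sample far from the others of its group was looked for in 24 groups of 8 arrays, 1 per gene and HFD time, and chance gives about 1 in 20. There were 2 such arrays. Lpl on HFD 14-day replicate 8 was the highest of its group at 6.08. This array also had the highest acinar marker mean of its group, 9.32, and a macrophage marker mean of 5.75. The other 14-day array with an acinar mean over 6, replicate 3, had 8.14 and an Lpl value of 4.41. The part of pancreatic tissue in the Lpl value was not tested. Without replicate 8 Lpl at 14 days differed from controls by -0.71 with a limma adjusted p of 0.00696, which passed. Fabp4 on HFD 7-day replicate 5 was the highest of its group at 3.88.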

How the results depend on the processing

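Of 432 values of the 8 genes against controls over 18 alternatives, 388 kept their direction and their side of the threshold, 10 lost a call, 7 gained one and 27 changed sign without a call. Fabp2 kept its call at all 3 times and Cd36 its calls at 7 and 21 days in each. Cd36 at 14 days was lost with controls 1 to 9 (adjusted p = 0.334), HFD 1 to 4 (0.606), the block (0.290) and the macrophage covariate (0.0563), and Fabp1 at 7 days with controls 1 to 9 (0.0689) and HFD 1 to 4 (0.111). Lpl at 7 days gained a call with its own groups (0.0457) and with the acinar (0.0420) or Malat1 (0.0469) covariate, and at 14 days with array weights (0.0333). Fabp1 at 14 days gained one with array weights (0.00396) and the Malat1 covariate (7.91e-04). For 7 named list genes, 314 of 378 values stayed, 56 lost a call, 2 gained one and 6 changed sign without a call. The cause was not tested, but settings that leave out arrays have fewer samples.

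Genes called at 7 days were 605 with array weights, 144 with HFD 5 to 8, 101 without acinar-high arrays and 162 with the macrophage covariate, against 251. At 14 days they were 193 with array weights, 61 with controls 10 to 18, 69 with HFD 1 to 4, 58 with HFD 5 to 8, 77 with the replicate block and 65 without acinar-high arrays, against 120, and the members called were 4 with array weights and 1 with controls 1 to 9, HFD 1 to 4, the block, no acinar-high arrays or the macrophage covariate. At 21 days they were 71 with controls 10 to 18, 903 with HFD 1 to 4 and 349 with HFD 5 to 8, against 126. For 14 against 7 days array weights gave 3. For 21 against 7 days and for the F test 0 were called with quantile normalization, own groups, HFD 1 to 4, HFD 5 to 8, the block, no acinar-high arrays or the macrophage covariate; array weights gave 0 and 3. Between the numbers the Malat1 covariate left 0 genes and 0 members, and leaving out acinar-high arrays 1310 genes and 1 member; Slc27a4 turned to 0.051 with the Malat1 covariate. Leaving out 1 array gave 195 to 265 genes and 3 to 4 members at 7 days, 81 to 125 and 1 to 3 at 14 days, 107 to 131 and 3 at 21 days, 0 to 1 genes between times and in the F test, and 3251 to 4084 between the numbers. With the block 227 genes were called at 7 days, 93 at 21 days and 0 between 14 and 21 days.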
